A study of Mus musculus with 66 samples.

Results

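Spinal cords of wild-type DBA/1J mice (n = 3) were compared with those of wild-type C57BL/6J mice (n = 3) across all genes measured by RNA sequencing. These 6 libraries were chosen by strain, tissue and genotype out of 66 in the series, of which 24 are spinal cord. The series concerns Rorb, a nuclear receptor gene whose recessive mutations arose on several inbred backgrounds, and wild-type C57BL/6J and DBA/1J groups were sequenced beside the mutants. The C57BL/6J mice were 2 females and 1 male, all 8.0 weeks old. The DBA/1J mice were 2 males of 8.7 and 8.9 weeks and 1 female of 8.4 weeks. Every DBA/1J mouse was older than every C57BL/6J mouse, so age cannot be told apart from strain. None of the 6 mice carried a Rorb mutation. As a second set of mice, Rorb h5/h5 spinal cords (n = 3, DBA/1J background, 2 females and 1 male, 8.4 to 8.7 weeks) were set against Rorb h1/h1 spinal cords (n = 3, C57BL/6J background, 2 females and 1 male, 8.0 weeks), which differ in background and also carry different Rorb mutations.

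Inbred strains are fixed for 1 allele at almost every locus, so a difference between strains joins all the sequence variants that separate them, in cis and in trans. DBA/1J and C57BL/6J come from distant branches of the laboratory mouse pedigree and differ in coat color genes, in the haplotype of the major histocompatibility complex (MHC), in gene copy number and in the positions of retrotransposed gene copies. The mouse reference genome was built from C57BL/6J. Reads of both strains were aligned by the authors to that reference (GRCm38), so a DBA/1J read carries mismatches that a C57BL/6J read does not, and a sequence that only DBA/1J has is absent from the index. How far this alignment enters the value of a single gene was not tested.

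Values below are CPM, the counts of a gene scaled to a fixed total for each library after normalization across libraries. A gene was called where edgeR's quasi-likelihood test gave an adjusted p under 0.05. Library totals were 42851690 to 47653578 counts in C57BL/6J and 36285179 to 42918369 in DBA/1J (two-sided exact permutation test, p = 0.2, where 3 against 3 cannot give less than 0.1). Transcripts of the mitochondrial genome took 5.47% to 5.61% of counts in DBA/1J and 6.23% to 6.88% in C57BL/6J, with no overlap (exact permutation p = 0.1). A single identifier without a symbol, ENSMUSG00000098178, took 17361, 45794 and 17740 CPM in C57BL/6J and 67609, 98715 and 14946 CPM in DBA/1J. The labelled tissue was checked against patterning genes. All 27 spinal cord Hox genes listed passed the filter on low counts and summed to 612 to 682 CPM in DBA/1J and 648 to 679 CPM in C57BL/6J. Rorb itself lay at 40.8, 39.2 and 36.4 CPM in C57BL/6J and 39.8, 42.4 and 39.3 CPM in DBA/1J, and was not called (log2 fold change 0.06, SE 0.059, edgeR adjusted p = 0.529).

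Of 17318 genes tested, 3687 (21.3%) were called. In DBA/1J, 1480 genes (8.55%) were higher and 2207 (12.7%) were lower. Most differences were small, with a median absolute log2 fold change of 0.39 among called genes, and the median over all genes tested was 0.01. A difference of at least 2-fold was found in 788 called genes (4.55%), of which 325 (1.88%) were higher and 463 (2.67%) were lower in DBA/1J. The 2 groups of libraries did not overlap for 6412 genes (37.0%). The share called rose with expression, from 14.3% of the 4330 genes of lowest mean CPM to 27.7% of the 4330 genes of highest. The 2-fold calls ran the other way, at 11.7% of the former and 0.670% of the latter. Protein-coding genes were called in 21.8% of cases (3232 of 14835), long noncoding RNAs in 16% (180 of 1123, with 44 higher and 136 lower) and processed pseudogenes in 29.3% (105 of 358, with 93 higher and 12 lower).

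**Figure D1:**
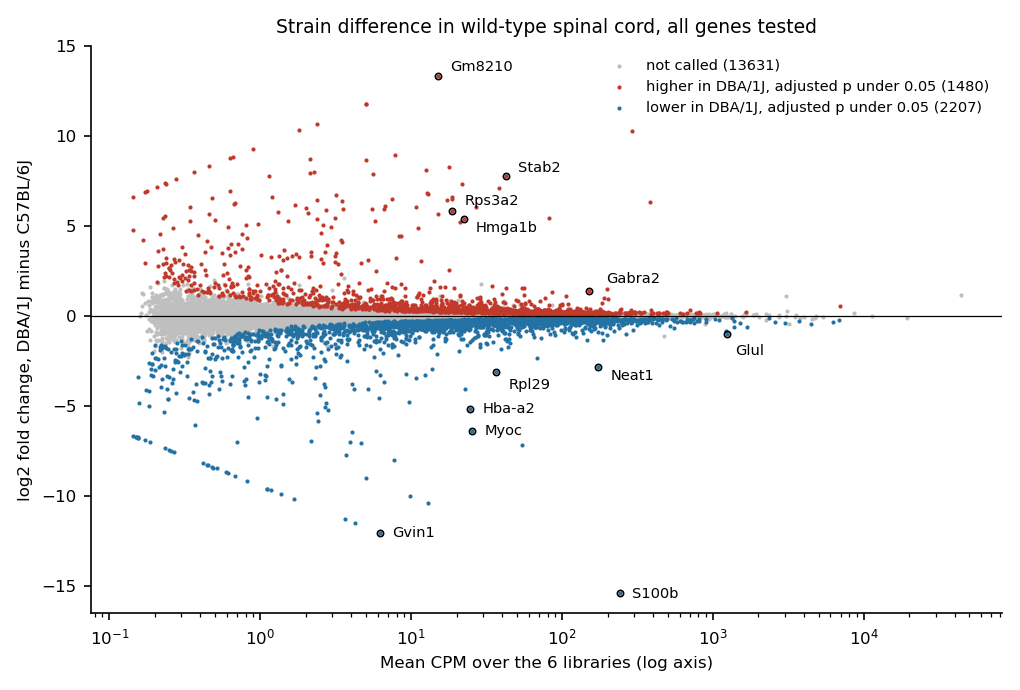
Log2 fold change (DBA/1J minus C57BL/6J) of each of the 17318 genes tested in wild-type spinal cord against its mean CPM over the 6 libraries on a log axis, with called genes in red (higher in DBA/1J, 1480) and blue (lower, 2207). Fold changes of genes at 0 in every library of a strain depend on the prior count of the fit and mark such genes rather than measure them, as for Gm8210 and Gvin1.

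The largest loss was that of S100b, the calcium-binding protein used as a marker of astrocytes and some oligodendrocytes. S100b (ENSMUSG00000033208, chr10:76253836-76261319 in GRCm38) had 22957, 20746 and 21451 counts in the C57BL/6J cords and 1, 0 and 0 counts in the DBA/1J cords. This is 476, 489 and 475 CPM against 0.0236, 0 and 0 CPM (edgeR adjusted p = 1.7e-16). The ratio of C57BL/6J to DBA/1J over all counts was 58312, with a 95% exact interval of 10466 to 2303247 that covers counting error only. In the mutants, S100b averaged 466 CPM in Rorb h1/h1 and 0 CPM in Rorb h5/h5. Genes within 0.25 Mb of S100b moved in both directions or were not called. Dip2a, on its right, fell to 84.2 CPM from 209 CPM (log2 fold change -1.31, SE 0.047). Prmt2, an arginine methyltransferase gene on its left, rose to 69.5 CPM from 43.8 CPM (log2 fold change 0.67, SE 0.047), and Zfp280b rose by 0.24. Pcnt, Ybey and Mcm3ap were not called, at -0.03, -0.10 and 0.06 on the log2 scale.

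Among genes of at least 5 CPM on average, leaving out symbols of predicted models and symbols ending in -ps or -rs, the largest gain lay further along the same chromosome. Stab2 (ENSMUSG00000035459, chr10:86841194-87008038) encodes a scavenger receptor for hyaluronan best known from sinusoidal endothelium. It measured 76.5, 85.2 and 90.3 CPM in DBA/1J and 0.249, 0.519 and 0.421 CPM in C57BL/6J (log2 fold change 7.74, SE 0.13, edgeR adjusted p = 2.16e-13). The log2 difference was 8.08 between the mutants and 7.30 in brain. Of its neighbors within 0.25 Mb, 1810014B01Rik, Hsp90b1, Ttc41 and Nt5dc3 were tested and none was called. Hsp90b1, a chaperone of the endoplasmic reticulum, averaged 444 CPM in DBA/1J and 445 CPM in C57BL/6J.

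Genes lower in DBA/1J included several with well known roles outside the cord. Myoc, an extracellular protein gene linked to glaucoma (chr1:162639150-162649694), measured 50.4, 52.1 and 48.0 CPM in C57BL/6J and 0.378, 0.466 and 0.892 CPM in DBA/1J, an 84.5-fold difference (log2 fold change -6.40, SE 0.15, edgeR adjusted p = 6.86e-12). Pttg1, which encodes securin, the inhibitor of separase (chr11:43420244-43427463), measured 18.7, 19.0 and 18.4 CPM in C57BL/6J and 0.591, 0.582 and 0.847 CPM in DBA/1J (log2 fold change -4.77, SE 0.13). Both groups of Myoc and Pttg1 values stood clear of each other. Neat1, the long noncoding RNA on which paraspeckles assemble (chr19:5824708-5845480), fell to 41.1, 40.5 and 44.0 CPM from 309, 300 and 303 CPM (log2 fold change -2.86, SE 0.043, edgeR adjusted p = 5.82e-14). Myo7a, the motor protein gene of Usher syndrome (chr7:98051054-98119522), fell to 3.26, 3.06 and 3.17 CPM from 24.4, 24.2 and 24.1 CPM (log2 fold change -2.94, SE 0.082). Replicates of these genes differed by far less than the strains. Hjurp, the chaperone that loads the centromeric histone CENP-A, fell to 22.8, 20.1 and 23.6 CPM from 110, 110 and 123 CPM. Fggy, a carbohydrate kinase gene, averaged 0.950 CPM against 12.3 CPM, and Tceanc2 averaged 2.27 CPM against 22.4 CPM.

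Mid1 and Erdr1y, near the boundary of the X and Y pairing region, fell together. Mid1, a ubiquitin ligase gene, measured 13, 7.94 and 13.1 CPM in C57BL/6J and 1.3, 1.08 and 1.07 CPM in DBA/1J (log2 fold change -3.30, SE 0.20). Erdr1y measured 23.4, 12 and 23.2 CPM against 2.24, 2.01 and 1.16 CPM (log2 fold change -3.45, SE 0.27). In both genes the second C57BL/6J female was the lowest of its strain, yet above every DBA/1J cord. Genes of the sex-linked list gave 0 calls out of 9 tested in edgeR, 0 at an unadjusted p under 0.05 and 0 in DESeq2, with 2 males and 1 female in DBA/1J and the reverse in C57BL/6J. The list gave 4 calls without C57BL/6J replicate 3, the male of its group, and 2 without DBA/1J replicate 3, the female of its group, where a group is left with a single sex.

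**Figure D2:**
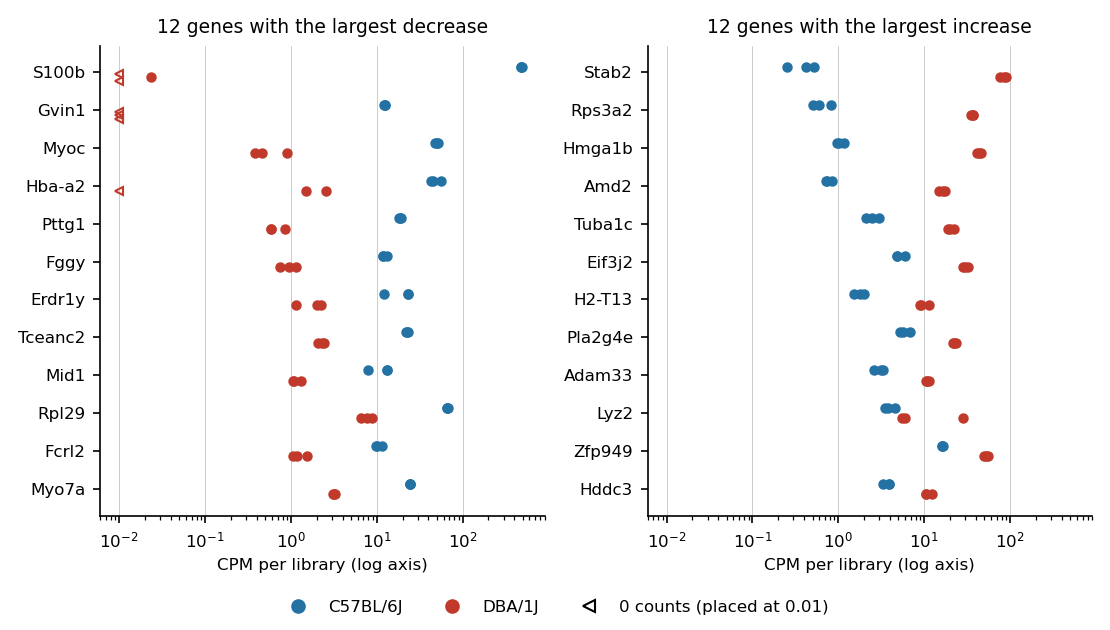
CPM of each library on a log axis for the 12 genes lowest and the 12 genes highest in DBA/1J by fold change, among called genes of at least 5 CPM on average, without symbols of predicted models or symbols ending in -ps or -rs, with C57BL/6J in blue and DBA/1J in red and open triangles for libraries with 0 counts. The groups do not overlap for any of the 24 genes, against 37.0% of all genes tested, which the choice of these genes largely fixes. Lyz2 is the gene where a single DBA/1J library (28.4 CPM) stands far from the others (5.51 and 5.97 CPM).

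Among the higher genes chosen by the same rule, several were close copies of a gene elsewhere in the genome. Rps3a2 rose to 35.1, 37.0 and 37.2 CPM from 0.830, 0.589 and 0.509 CPM, Hmga1b to 45.6, 43.9 and 40.8 CPM from 1.02, 0.966 and 1.15 CPM. Amd2, Tuba1c and Eif3j2 rose by 4.41, 3.04 and 2.54 on the log2 scale. They resemble genes for a ribosomal protein, a chromatin protein, an enzyme of polyamine synthesis, an alpha-tubulin and a translation initiation factor. Rps3a2 is annotated as a processed pseudogene and the other 4 as protein-coding, and Tuba1c matched Tuba1b over 57.3% of its transcript. The others were H2-T13, a nonclassical MHC class I gene (log2 fold change 2.48), Pla2g4e, a cytosolic phospholipase (1.92), Adam33, a membrane metalloprotease (1.85), Lyz2 (1.77), Zfp949 (1.67) and Hddc3 (1.60). Lyz2, the lysozyme of macrophages, had an edgeR adjusted p of 0.0224, lost its call without C57BL/6J replicate 1 or 2, and had a log2 fold change of 0.54 without DBA/1J replicate 3.

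Outside that rule, many of the largest gains were processed pseudogenes, the intronless copies that retrotransposition leaves behind. They are named here after their values were seen. Of the 325 genes at least 2-fold higher in DBA/1J, 91 were processed pseudogenes, against 8 of the 463 at least 2-fold lower. A match of their transcripts to coding transcripts placed 86 of the 91 beside 69 coding genes at an identity of at least 95% over at least 80% of the length. The stretches printed here, from the sense strand of the C57BL/6J reference transcripts in GENCODE, show how little separates a gene from its copy where reads have to be assigned. Each is 60 bases of the coding sequence of the gene and the same stretch of the copy, 5′ to 3′, and capitals mark the bases that differ.
Gapdh: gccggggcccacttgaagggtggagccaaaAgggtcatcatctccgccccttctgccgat
Gm13394: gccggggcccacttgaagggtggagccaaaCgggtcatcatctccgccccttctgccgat
Hspa8: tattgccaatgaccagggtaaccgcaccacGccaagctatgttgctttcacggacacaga
Gm15459: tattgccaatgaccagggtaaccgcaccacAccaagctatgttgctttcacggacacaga
Rps3a1: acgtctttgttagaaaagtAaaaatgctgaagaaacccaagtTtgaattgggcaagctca
Rps3a2: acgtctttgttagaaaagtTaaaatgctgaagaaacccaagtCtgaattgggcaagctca
Rpl29: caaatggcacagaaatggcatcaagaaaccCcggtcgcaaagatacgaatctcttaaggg
Gm8210: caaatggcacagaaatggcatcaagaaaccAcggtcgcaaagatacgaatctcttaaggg
Gapdh and Gm13394 differ at 1 of 999 coding bases (99.9% identity), and the stretch covers coding bases 316 to 375. Hspa8 and Gm15459 differ at 5 of 1938, Rps3a1 and Rps3a2 at 4 of 792, and Rpl29 and Gm8210 at 3 of 480. Their stretches start at coding bases 84, 626 and 42. Hmga1 and Hmga1b had 0 differences over the 275 bases aligned of a coding length of 279.

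Gapdh, the glycolytic enzyme often used as a reference gene, gave 1 example. Its pseudogene Gm13394 (chr2:28933429-28934627) measured 597, 568 and 564 CPM in DBA/1J and 0.270, 0.707 and 0.465 CPM in C57BL/6J. Gapdh (chr6:125161852-125166467) measured 889, 890 and 861 CPM in DBA/1J and 1611, 1511 and 1598 CPM in C57BL/6J (log2 fold change -0.84, SE 0.045, edgeR adjusted p = 2.17e-08). Summed over Gapdh and its copies, 84 identifiers in all, the strains stood at 1467 ± 30.0 CPM in DBA/1J and 1603 ± 57.5 CPM in C57BL/6J (SD, n = 3), a log2 ratio of -0.13. The sum over the copies thus differed by far less than Gapdh alone, although its groups did not overlap.

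Other genes with a copy gave similar pairs of values. Hspa8, a constitutive heat shock protein 70, fell to 1341, 1367 and 1211 CPM from 2056, 1870 and 2155 CPM, while its pseudogene Gm15459 rose to 770, 778 and 725 CPM from 10.4, 6.18 and 11.7 CPM. Their sum over 4 identifiers was 2068 ± 112 CPM in DBA/1J and 2039 ± 148 CPM in C57BL/6J (SD, n = 3), and the groups overlapped. Rpl3, a protein of the large ribosomal subunit, fell to 170, 177 and 185 CPM from 352, 357 and 360 CPM, and Rpl3-ps1 rose to 159, 150 and 174 CPM from 3.40, 3.75 and 3.88 CPM. The Rpl3 sums were 338 ± 17.3 CPM and 360 ± 4.26 CPM and also overlapped. Hmga1, an architectural chromatin protein, averaged 20.3 CPM in DBA/1J and 66.7 CPM in C57BL/6J, whereas Hmga1 with Hmga1b summed to 63.7 ± 3.78 CPM and 67.8 ± 1.22 CPM. Rps3a1 with its copies summed to 225 ± 3.86 CPM and 234 ± 4.26 CPM. Neither the Hmga1 sums nor the Rps3a1 sums overlapped between strains.

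In other families the sum differed more. Rpl29 fell to 7.66, 8.79 and 6.49 CPM from 65, 67.2 and 65 CPM (log2 fold change -3.11, SE 0.087), and its pseudogene Gm8210 had 1462, 931 and 1279 counts in DBA/1J and 0 counts in C57BL/6J. Their family summed to 43.3 ± 0.531 CPM in DBA/1J and 67.5 ± 1.05 CPM in C57BL/6J (SD, n = 3), a log2 ratio of -0.64. Rpsa, a protein of the small ribosomal subunit also known as a laminin receptor, gave -1.31 alone and -0.54 as a family. Glul and Glo1 kept their difference, with family log2 ratios of -1.0 and 1.06 beside -1.02 and 0.99 for the gene alone. Cox7a2l gave -1.24 alone and -0.91 as a family. Kpna2rt, Zfp493 and Cdh11 went the other way, with family ratios of 4.53, 3.34 and 0.66 against 3.38, -0.03 and -0.16 for the gene alone.

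Of the 69 coding genes, 51 were called lower in DBA/1J and 3 higher, against 12.7% and 8.55% of all genes tested. In 56 of the 69 the summed family differed less between strains than the gene did. Since the 69 genes were chosen for a copy higher in DBA/1J, and most were themselves lower, adding the copy moved the ratio towards 0 by construction, and these counts are a description. The median absolute log2 ratio was 0.45 for the genes and 0.20 for the families, and 22 families overlapped between strains. Since a gene and its copy share reads, these values are not independent of each other. Whether a copy was transcribed in DBA/1J or received reads of its coding gene cannot be told apart in these counts.

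**Figure D3:**
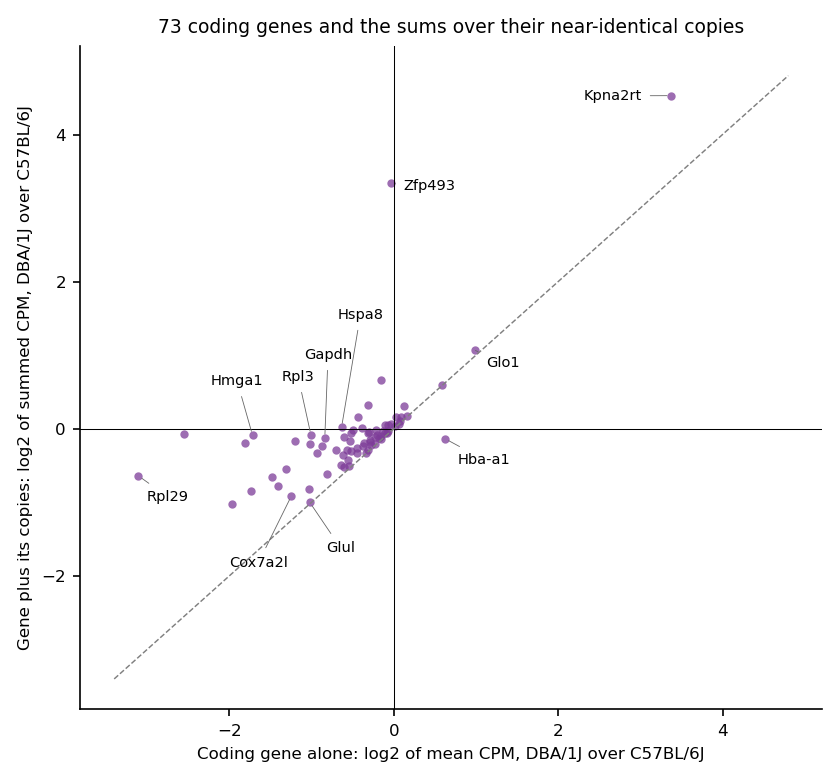
Log2 ratio of mean CPM, DBA/1J over C57BL/6J, for 73 coding genes with a near-identical copy that differed between strains (69 matched to a processed pseudogene and 4 to a coding copy), for the gene alone (horizontal axis) and for the gene plus its copies (vertical axis), with the line of equal values dashed. Gapdh, Hspa8, Rpl3 and Hmga1 lie left of 0 alone and near 0 as a family, while Glul and Glo1 lie on the line.

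Genes were also sorted into those seen in 1 strain only, meaning at most 3 counts in each library of a strain and at least 1 CPM in each library of the other. There were 20 such genes in DBA/1J and 17 in C57BL/6J. Processed pseudogenes made up 15 of the 20, each matched over at least 99% of its transcript at 95.5% to 99.9% identity, and 0 of the 17. Their 13 distinct best matches were called lower in 9 cases, higher in 1 and not called in 3. The other genes seen in DBA/1J were Zfp990, Ctse, Slpi, Ccr6 and Serpina3h. Zfp990, a zinc finger gene in a cluster of chromosome 4 (chr4:145510759-145538251), had 187, 157 and 233 counts in DBA/1J and 0 counts in C57BL/6J. With 3 counts over the group as the floor, it was at least 215-fold higher. Ccr6, a chemokine receptor, was at least 60.3-fold higher on 162 counts. Ctse, the aspartic protease cathepsin E, had 298 counts against 3, a ratio of 111 with a 95% exact interval of 37.6 to 541.

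The protein-coding genes seen in C57BL/6J included S100b, Gvin1 and Trim12a. Gvin1, a very large interferon-inducible GTPase, had 604, 512 and 560 counts in C57BL/6J and 0 counts in DBA/1J. Its close paralog Gvin2 measured 10.6, 7.61 and 11.1 CPM in C57BL/6J and 9.97, 11.4 and 10.6 CPM in DBA/1J, so the split of reads between the pair is uncertain. Trim12a, of the antiviral Trim5 group, had 152, 140 and 161 counts against 0, and was at least 135-fold lower in DBA/1J. Hba-a2, an alpha-globin gene, fell to 2.60, 1.48 and 0 CPM from 45.2, 43.1 and 55.9 CPM, but with its twin Hba-a1 the sums were 105 ± 49.3 CPM in DBA/1J and 115 ± 20.4 CPM in C57BL/6J (SD, n = 3) and overlapped.

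Loci where C57BL/6J and DBA strains are known to carry different alleles were listed as well. The list was chosen with earlier results of these data known, so its share of calls is a description and no test of the labels. Of 9 listed, 7 were expressed enough to test, and 4 were called higher and 2 lower in DBA/1J (85.7% called, against 21.3% of all genes). Gabra2, the alpha-2 subunit of the GABA-A receptor, carries an intronic deletion in C57BL/6J (chr5:70958392-71095849). It measured 81.8, 85.3 and 85.0 CPM in C57BL/6J and 216, 216 and 223 CPM in DBA/1J (log2 fold change 1.38, SE 0.035, edgeR adjusted p = 1.2e-11). Nnt, the mitochondrial transhydrogenase that lacks several exons in C57BL/6J, measured 18.6, 18.0 and 18.3 CPM there and 35.6, 35.1 and 37.3 CPM in DBA/1J (log2 fold change 0.98, SE 0.059). Neither gene had a library of 1 strain within reach of the other.

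Alad and Glo1 are genes for which copy-number gains have been described among inbred strains. Alad, an enzyme of heme synthesis, measured 28.7, 26.3 and 30.4 CPM in DBA/1J and 9.63, 10.3 and 9.61 CPM in C57BL/6J (log2 fold change 1.53, SE 0.077). Glo1, which detoxifies methylglyoxal, measured 239, 254 and 262 CPM in DBA/1J and 124, 128 and 128 CPM in C57BL/6J, a 1.99-fold difference (edgeR adjusted p = 2.01e-09). Cox7a2l, a factor of respiratory supercomplexes with a known length variant in C57BL/6 mice, fell to 42.3, 42.8 and 43.4 CPM from 99.9, 103 and 101 CPM (log2 fold change -1.24, SE 0.040). Myo5a, the dilute gene of DBA coat color, was lower by a small margin at 485, 517 and 505 CPM against 581, 556 and 582 CPM (log2 fold change -0.19, edgeR adjusted p = 0.00752). Ahr, the dioxin receptor, was not called at -0.18 (SE 0.15, edgeR adjusted p = 0.456). Tyrp1, the brown gene, and H2-Ea were too low to test.

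DBA/1J carries the q haplotype of the MHC and C57BL/6J the b haplotype, whose class I and class II genes differ in sequence and number. How reads of the q haplotype were assigned among the b genes of the reference was not tested, so the levels of single genes of the complex are uncertain. Of 27 class I and antigen processing genes tested, 3 were called higher and 5 lower (29.6% called, against 21.3% of all genes), with a median log2 fold change of 0.16. H2-D1, a classical class I gene (chr17:35263094-35267497), rose to 123, 118 and 128 CPM from 47.1, 47.9 and 49.7 CPM (log2 fold change 1.35, SE 0.042, edgeR adjusted p = 8.16e-11). H2-K1, the other classical gene, fell to 11.1, 13 and 15.6 CPM from 19.8, 21.5 and 21.6 CPM (log2 fold change -0.66, SE 0.11). The classical genes thus moved in opposite directions. H2-T24 and H2-Q4 rose by 1.65 and 0.96, and H2-T22 and the light chain B2m fell by 0.75 and 0.37 on the log2 scale.

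Among 12 class II and presentation genes tested, 3 were higher and 1 lower (33.3% called, against 21.3% of all genes; median 0.30). H2-Ab1, the beta chain of the A molecule, measured 1.63, 0.757 and 1.94 CPM in DBA/1J and 0.311, 0.141 and 0.199 CPM in C57BL/6J (log2 fold change 2.71, SE 0.42). Cd74, the invariant chain, measured 2.29, 2.56 and 5.55 CPM against 0.768, 0.660 and 0.864 CPM (log2 fold change 2.19, SE 0.33). H2-Eb1 fell by 2.01 and Ctss, the protease that trims the invariant chain, rose by 0.68. The highest value among H2-Ab1, Cd74 and H2-Eb1 was 5.55 CPM, in DBA/1J replicate 3.

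Interferon response genes moved in both directions, with 11 higher and 8 lower of 57 tested (33.3% called, against 21.3% of all genes; median 0.11). Ifit3, which binds viral RNA complexes, rose to 17.1, 36.1 and 21.8 CPM from 7.97, 8.74 and 8.21 CPM (log2 fold change 1.58, SE 0.21). Slfn8 rose by 2.92, Ifi44 by 1.45 and Usp18, a protease that removes Isg15, by 1.15. Trim30d, Mndal and Gbp7, each in a cluster of paralogs, fell by 3.51, 3.03 and 1.40. In the mutants 11 of these 19 genes were called in the same direction, a share near the 64.4% of all wild-type calls. Without C57BL/6J replicate 1 the list gave 12 calls.

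Of 24 complement genes tested, 8 were higher, 1 was lower and 15 were not called (37.5% called, against 21.3% of all genes; median 0.22), and 5 of these 9 were called in the same direction in the mutants, against 64.4% of all wild-type calls. They summed to 854 to 964 CPM in DBA/1J and 795 to 799 CPM in C57BL/6J. C3, the hub of the cascade, rose to 111, 132 and 162 CPM from 86.5, 86.4 and 79.4 CPM (log2 fold change 0.68, SE 0.098, edgeR adjusted p = 0.000214). Masp2, a protease of the lectin pathway, rose by 3.65, the receptor C3ar1 by 0.94 and C1qb, a chain of the recognition molecule, by 0.51. C5ar2, a receptor for C5a, fell by 4.24, from 0.679 CPM to 0.0347 CPM on average. Itgax, a chain of complement receptor 4, was called at 2.12 (edgeR adjusted p = 0.0468) on 0.449, 0.349 and 3.10 CPM against 0.290, 0.330 and 0.288 CPM, and gave 0.41 (edgeR adjusted p = 0.588) without DBA/1J replicate 3. Its call was also lost without any 1 of the 3 C57BL/6J libraries.

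Microglia and macrophage markers showed the same library. Their sum was 459, 437 and 580 CPM in DBA/1J replicates 1 to 3 and 385 to 402 CPM in C57BL/6J. Of 22 tested, 7 were higher and 1 lower (36.4% called, against 21.3% of all genes; median 0.27), and there were 8 calls without DBA/1J replicate 3 and 5 without C57BL/6J replicate 1. Aif1, the actin-binding protein Iba1, rose by 1.05, Ptprc, the leukocyte phosphatase CD45, by 0.60, Trem2, a lipid receptor, by 0.59 and Csf1r, the growth factor receptor on which microglia depend, by 0.37. Ptprc lost its call without C57BL/6J replicate 1 or 2. P2ry12 and Tmem119, the markers that set resident microglia apart, were not called at 0.07 and 0.02. The part of this library in the complement and class II values was not tested beyond the values without it, which gave 8 and 5 calls. In bulk tissue a change in the number of cells of a type and a change in the RNA of each cell cannot be told apart.

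Of 20 astrocyte markers tested, 10 were lower, 1 was higher and 9 were not called (55.0% called, against 21.3% of all genes; median -0.14). Their sum was 9543 to 9939 CPM in DBA/1J and 11284 to 11421 CPM in C57BL/6J, a gap to which S100b and Glul contributed most as single genes. Glul, glutamine synthetase, which turns glutamate taken up from synapses into glutamine (chr1:153899929-153909723), fell to 797, 822 and 830 CPM from 1678, 1649 and 1649 CPM (log2 fold change -1.02, SE 0.043, edgeR adjusted p = 1.69e-09). Etnppl, a lyase of phosphoethanolamine, fell to 11.5, 18.5 and 19.4 CPM from 49.1, 40.4 and 50.2 CPM (log2 fold change -1.50, SE 0.15). Ntsr2, a neurotensin receptor, fell by 0.63 and the filament protein Gfap by 0.27. The glutamate transporters Slc1a2 and Slc1a3 and the dehydrogenase Aldh1l1 were not called, at 0.05, 0.07 and -0.03, nor was the water channel Aqp4 at -0.12. In the mutants 9 of the 11 genes were called in the same direction, against 64.4% of all wild-type calls.

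The oligodendrocyte lineage divided in a like manner. Of 28 myelin and oligodendrocyte genes, 13 were lower and 5 higher (64.3% called, against 21.3% of all genes; median -0.12), and 14 of these 18 were called in the same direction in the mutants, against 64.4% of all wild-type calls. Mog, a glycoprotein of the outer myelin surface (chr17:37010740-37023398), fell to 116, 117 and 131 CPM from 217, 240 and 220 CPM (log2 fold change -0.89, SE 0.054, edgeR adjusted p = 6.95e-08). The lineage factors Olig2, Sox10 and Olig1 fell by 0.70, 0.54 and 0.52. Olig1 and Olig2 both lie in chr16:90000001-92000000, where 14 of 23 tested genes were called, 11 lower and 3 higher. Mbp, a main protein of compact myelin, and Cnp, an enzyme of the myelin sheath, were not called, at 0.00 and 0.02. The summed myelin genes overlapped, at 29329 to 32178 CPM in DBA/1J and 29949 to 31523 CPM in C57BL/6J. Of 10 genes of oligodendrocyte precursors, Lhfpl3, Tnr and the proteoglycan Cspg4 fell by 0.56, 0.38 and 0.33 and 7 were not called (30% called). Cspg4 lost its call without C57BL/6J replicate 2 or 3 or DBA/1J replicate 2.

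Lists of neuronal genes were counted next, beside the 21.3% of all genes called. Of 19 genes of GABA and glycine neurons, 6 were lower and 0 higher (31.6%), among them the interneuron factor Lhx1 (-0.56), the glycine receptor subunit Glra2 (-0.46) and the glycine transporter Slc6a9 (-0.31). In the mutants 1 of the 6 was called in the same direction, against 64.4% of all wild-type calls. Among 15 GABA-A receptor subunits, 4 were lower and 2 higher (40.0%), with Gabrq at 0.37 beside Gabra2. These 6 calls became 3 without C57BL/6J replicate 1 and 3 without DBA/1J replicate 1. Of 32 glutamatergic and dorsal horn genes, 6 were lower and 2 higher (25%). Oprd1, the delta opioid receptor, fell by 0.66, and Calca and Nts, the genes of calcitonin gene-related peptide and neurotensin, fell by 0.58 and 0.53.

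Motor neuron genes gave 5 higher and 2 lower of 21 (33.3%), and 1 of the 7 was called in the same direction in the mutants, against 64.4% of all wild-type calls. Without C57BL/6J replicate 1 there were 4 calls. Anxa4, a calcium-dependent membrane-binding protein, rose to 15.2, 16.6 and 16.1 CPM from 6.43, 7.07 and 6.02 CPM (log2 fold change 1.3, SE 0.088, edgeR adjusted p = 2.26e-07). Prph, the filament peripherin, rose by 0.29 and Vipr2 fell by 0.55, a call lost without C57BL/6J replicate 1 or 3. Chat, the enzyme of acetylcholine synthesis, was not called at 0.15. The Hox genes gave 2 calls of 27 (7.41%), Hoxc8 at -0.39 and Hoxb5 at 0.19, and 1 call without C57BL/6J replicate 2 or DBA/1J replicate 1, where Hoxb5 lost its call.

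Of 50 glutathione, glyoxalase and redox genes, 8 were higher and 7 lower (30.0% called, against 21.3% of all genes; median 0.01). Gpx3, a secreted glutathione peroxidase, rose to 20.1, 22.4 and 23 CPM from 9.67, 10.2 and 11.1 CPM (log2 fold change 1.08, SE 0.083), and Gpx8 of the endoplasmic reticulum rose by 1.01. In the mutants 14 of the 15 genes were called in the same direction, against 64.4% of all wild-type calls.

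Genes that respond quickly to activity and stress hormones were mostly higher where called. Of 20 immediate early and glucocorticoid genes, 8 were higher and 1 lower (45.0% called, against 21.3% of all genes; median 0.22). Fos, a subunit of the AP-1 factor, rose to 18.5, 21.2 and 15.5 CPM from 10.1, 9.57 and 9.39 CPM (log2 fold change 0.92, SE 0.11), and Fosb rose by 1.16. Sgk1, a kinase induced by glucocorticoids, rose to 108, 205 and 127 CPM from 53.1, 63.7 and 84.3 CPM (log2 fold change 1.13, SE 0.20). The groups stood apart for each of Fos and Sgk1, although their libraries spread more than those of Gabra2 or Glul. Clock genes gave 1 higher and 5 lower of 20 (30.0%), with Per1 at 0.53 and Npas2 at -0.46, and 10 calls without DBA/1J replicate 3.

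Lists of other cell types were counted as well, beside the 21.3% of all genes called. Endothelium and pericytes gave 4 lower of 26 (15.4%), Schwann cells and sensory ganglia 1 lower of 10 (10%), and skeletal muscle and bone 0 calls of 4 in edgeR (1 at an unadjusted p under 0.05, 0 in DESeq2). Ependyma and choroid plexus gave 4 lower of 11 (36.4%), among them Ccdc153 (-1.60) and Foxj1, the factor of motile cilia (-0.53). The ependymal list gave 2 calls without C57BL/6J replicate 1 or 2 and without DBA/1J replicate 1 or 2. The endothelial list gave 2 without C57BL/6J replicate 1 or DBA/1J replicate 1, and the Schwann cell list 0 to 3 without a library. Meninges and fibroblasts gave 3 higher and 1 lower of 15 (26.7%) on sums of 106 to 169 CPM in DBA/1J and 108 to 121 CPM in C57BL/6J, and Igf2 and Fmod among them lost their call without DBA/1J replicate 3 and without any 1 of the 3 C57BL/6J libraries. Without C57BL/6J replicates 1, 2 and 3 and DBA/1J replicate 1 in turn, the meningeal list gave 0, 1, 0 and 2 calls. Blood and hemoglobin genes gave 1 higher and 2 lower of 9 (33.3%), with S100a9, a neutrophil protein, at 2.09 and Hbb-bt, a beta-globin, at -1.22. The call of S100a9 was lost without C57BL/6J replicate 2 (1.65, edgeR adjusted p = 0.0693) and without replicate 3 (1.97, edgeR adjusted p = 0.0632). Forebrain and cerebellum genes gave 0 calls of 7 in edgeR (2 at an unadjusted p under 0.05, 0 in DESeq2), and chaperones of the endoplasmic reticulum gave 2 lower of 18 (11.1%), which became 4 calls without C57BL/6J replicate 3 or DBA/1J replicate 3. Without a library, the forebrain list gave 0 to 2 calls and the muscle list 0 to 1.

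**Figure D4:**
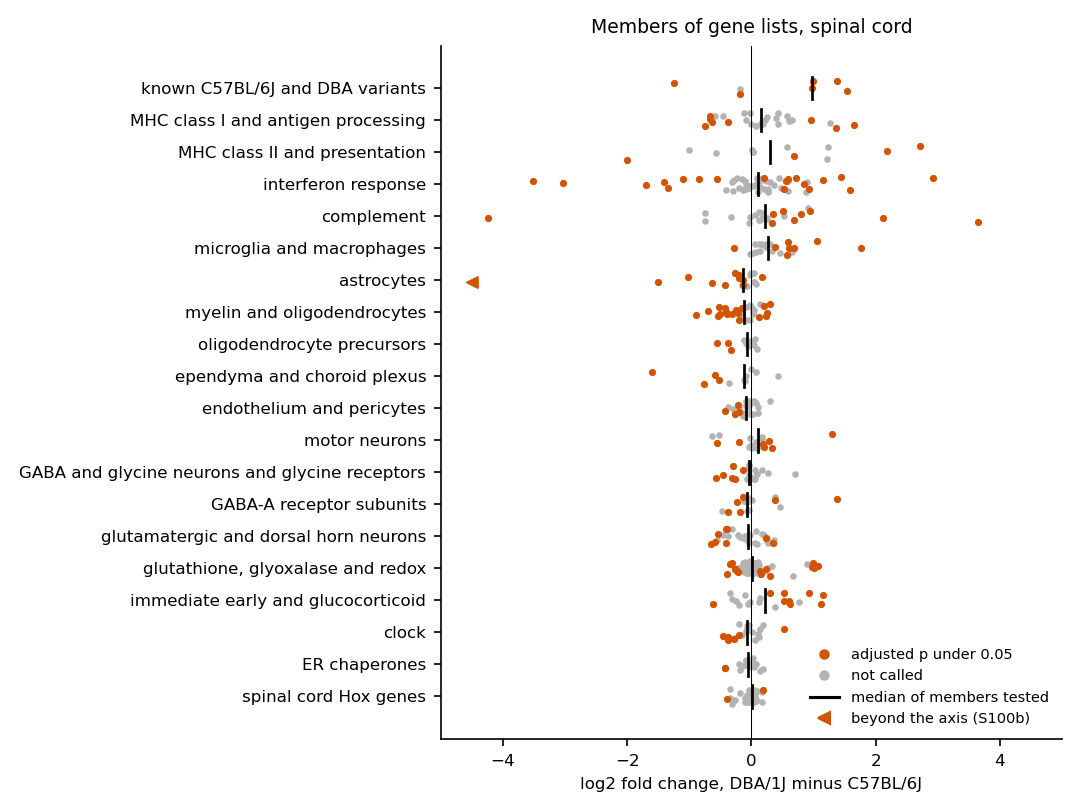
Log2 fold change (DBA/1J minus C57BL/6J) of each tested member of 20 gene lists, called genes in orange and others in grey, with a black bar at the median of the tested members. Members of the immune lists spread on both sides with medians above 0, while the medians of the astrocyte and myelin lists lie below 0 and that of the Hox genes at 0.01.

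Called genes were spread over the genome without being even. Among tested genes with a GRCm38 position, the share by autosome and X ran from 15.2% of tested genes on the X (85 of 559) to 27.1% on chromosome 4 (262 of 968). In windows of 2 Mb with at least 10 tested genes, 590 in all, the median share was 20.0%, 35 windows held 0 calls and 35 had at least as many called as not called. The highest share was that of chr2:52000001-54000000 with 8 of 10 genes called and 7 of them lower, led by Tnfaip6, Arl5a and Fmnl2. A window of zinc finger genes, chr4:146000001-148000000, had 11 of 15 called, and chr17:6000001-8000000 had 14 of 19.

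The strain difference was then measured in mice that the wild-type comparison did not use. Between Rorb h5/h5 and Rorb h1/h1 cords, 4121 of 17379 genes (23.7%) were called, 1806 (10.4%) higher and 2315 (13.3%) lower. Of the 3687 wild-type calls, 3642 were also tested there, and 3405 of them (93.5%) had the same direction. Called in both with the same direction were 2375 genes, which is 64.4% of the wild-type calls and 57.6% of the calls between the mutants. Of 743 wild-type calls of at least 2-fold that were tested in the mutants, 626 (84.3%) were called in the same direction and 10 pointed the other way. The 37 genes named by size, by p or as seen in 1 strain were all called in the mutants in the same direction. Their libraries did not overlap between the wild types, which the choice of these genes largely fixes.

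Only 16 genes were called in both with opposite directions. Malat1, an abundant nuclear RNA, was higher in DBA/1J wild type by 0.57 and lower in Rorb h5/h5 by 0.47 on the log2 scale. The mitochondrial transcript mt-Atp8 was lower by 0.66 and higher by 0.41. Fmr1, the fragile X gene, was at -0.20 and 0.13, and Id4 at -0.27 and 0.14. The mutants also differ in their Rorb alleles and Rorb itself differed between them (log2 fold change 0.58), so background and mutation cannot be told apart there. Identifiers without a symbol took 6.88%, 9.53% and 1.74% of counts in DBA/1J and 1.93%, 4.72% and 1.99% in C57BL/6J, which overlap. They took 4.13%, 3.09% and 4.24% in Rorb h5/h5 and 9.43%, 6.97% and 7.84% in Rorb h1/h1. Among the 16 genes, ENSMUSG00000106106, which has no symbol, stood at 1.54 between wild types and -0.997 between mutants. Whether this composition enters the opposite calls was not tested.

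**Figure D5:**
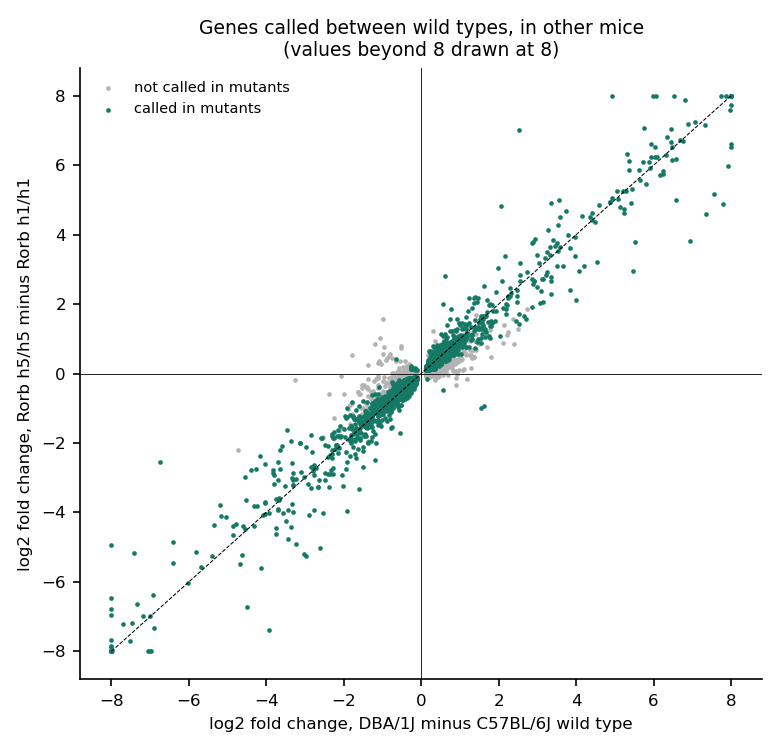
Log2 fold change of the genes called between wild types (horizontal axis, DBA/1J minus C57BL/6J) against the same genes between Rorb h5/h5 and Rorb h1/h1 spinal cords (vertical axis), which share no mice, with genes called in both in green and the line of equal values dashed. Values beyond 8 are drawn at 8, and 3405 of 3642 genes lie in the quadrants of equal direction.

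Wild-type brain libraries carry the sample numbers, sexes and ages of the cord libraries, and equal numbers within a strain were taken as the same mouse. They allowed a test of whether the strain difference itself differed between brain and cord, with the animal as a block. It did so for 40 of 18374 genes (0.218%), of which 20 (0.109%) were more positive in cord and 20 (0.109%) more negative. The count was 3 to 54 when a library was left out (7, 3 and 13 without C57BL/6J replicates 1, 2 and 3) and 318 without the filter on low counts. Of the 37 genes above, 36 were also called in brain in the same direction, Lyz2 being the exception. They were chosen for size, p or presence in 1 strain only, and the brains were taken to be of the same mice. The share of all cord calls repeated in brain is not given here, so this count is a description. Pxdn, a peroxidase of basement membranes, was higher in DBA/1J cord by 0.68 and stood at -0.18 in brain, where it was not called. Extl1, a heparan sulfate glycosyltransferase, was lower in cord by 0.85 and stood at 0.21 in brain, not called either. Luzp2 was called in both tissues in opposite directions, at 0.30 in cord and -0.30 in brain. Prdm16, a zinc finger regulator of transcription, fell in both, by 2.08 in cord and 0.63 in brain. For Neat1 the decrease was larger in cord, at -2.86, than in brain, at -2.36 (edgeR adjusted p of the difference = 0.033).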

How the data were processed

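Spinal cords were extruded with ice-cold buffer and snap-frozen, and polyA-selected libraries were sequenced paired-end. Per the methods and labels, the authors trimmed reads (Trim Galore), checked them (FastQC), aligned them with STAR to GRCm38 and quantified genes with RSEM. The annotation release is not given in the sources used here. The deposited expected counts, estimates that need not be whole, were rounded to whole numbers. The deposited TPM values were read but no test used them. Of 45706 identifiers, 41403 had a symbol in GENCODE and 31197 a GRCm38 position in RefSeq. The remainder without a symbol held between 1.74% and 9.53% of all counts in the 6 wild-type spinal cord libraries.

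Genes were filtered with filterByExpr, scaled by TMM and tested with edgeR 4.0.16 (R 4.3.3), using glmQLFTest and Benjamini-Hochberg adjustment over all genes tested, for DBA/1J (n = 3) against C57BL/6J (n = 3), without covariates. The same fit compared Rorb h5/h5 with Rorb h1/h1, and a strain by tissue term with the animal as a block compared cord with brain. The labels name separate mice as replicates. The code was tested on simulated counts with 200 changed genes. Alternatives were DESeq2 1.42.0, its size factors, limma 3.58.1, no filter, sex as a covariate, the replicate block and leaving out each library. Intervals and floors cover counting error only.

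Named genes were the 12 with the largest fold change and the 5 with the smallest p in each direction among called genes of at least 5 CPM on average whose symbol is not that of a predicted model (Gm with digits, or ending in Rik) and does not end in -ps or -rs, with or without digits, the 6 most abundant genes seen in 1 strain only in each direction, members of the lists with the largest fold changes, and the 5 smallest p in each direction of the tissue test under the same symbol and CPM rule. Members and lists were chosen with earlier results of these data known. Transcripts were matched with blastn at an identity of at least 95% over at least 80% of the length.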

Additional observations from a re-analysis of the deposited data

Results flagged for a closer look

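The strain difference differed between spinal cord and brain, by the strain by tissue term of edgeR with the animal as a block, in 14 of the genes named here. Of these, 10 were named for their small p in this same test, so that their place here follows from the choice, and H2-Ab1, Cd74, Zfp949 and Neat1 were named for other reasons. The number of such genes over all genes, 40, was 3 to 54 when a library was left out. The values that follow are the log2 difference between strains in cord minus that in brain. It was more positive in cord for H2-Ab1 (2.79), Cd74 (1.94), Pxdn (0.86), Fcho1 (0.73), Man2b1 (0.65), Luzp2 (0.60), Zfp949 (0.59) and Faah (0.59). It was more negative in cord for Prdm16 (-1.46), Extl1 (-1.07), Nbl1 (-1.03), Plekhh2 (-0.92), Col11a1 (-0.88) and Neat1 (-0.50). Adjusted p ranged from 0.00117 for Pxdn and Extl1 to 0.0334 for Neat1. Man2b1, a lysosomal mannosidase, was lower in DBA/1J brain by 0.49 and not called in cord at 0.16. Fcho1, which starts clathrin-coated pits, was higher in DBA/1J in both tissues, by 1.17 in cord and 0.44 in brain. Faah, which breaks down anandamide, was higher by 0.82 in cord and 0.23 in brain. H2-Ab1 and Cd74 stood at -0.09 and 0.14 in brain, where neither was called. No group held enough libraries for a test of single outlying samples.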

How the results depend on the processing

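The count of 3687 strain calls (1480 higher, 2207 lower) was 788 (325 higher, 463 lower) with a 2-fold minimum added, 3549 with DESeq2, 4280 without the filter on low counts, 3561 with sex as a covariate, 4429 with all 7 spinal cord groups in 1 fit, and 2646 to 3858 when each library was left out (993 to 1599 higher, 1653 to 2259 lower). Without the identifier of most variable level, an alternative chosen after seeing the data, it was 3685. Shared with the main calls in the same direction were 3335 genes with DESeq2 and 2554 to 3230 without a library, and 0 genes were called in opposite directions in any setting. Replicate numbers did not pair the mice: same-numbered mice deviated from their group means with correlations of -0.22, -0.10 and -0.34. With the replicate block 3065 genes were called and 12 of the named genes lost their call. The mutant comparison gave 2925 to 4513 calls without a library and 5440 when Rorb h5/h5 was set against Rorb h1/h1 to h4/h4. The tissue test was the least stable. Its 40 calls became 318 without the filter, 59 without the animal block, 33 with limma and 3 to 54 without a library, with 7, 3 and 13 calls without C57BL/6J replicates 1, 2 and 3. The cause was not tested. Lyz2 had an adjusted p of 0.105 with DESeq2, and Fgfbp3, at -0.55 with an edgeR adjusted p of 0.0456, lost its call with DESeq2, with sex, with the block and without any 1 library other than DBA/1J replicate 2. Of the 620 calls among the 4330 genes of lowest mean CPM, 505 were at least 2-fold.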
